A study of Mus musculus with 13 samples.

Results

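Iron handling in the mouse fetal liver was followed through 10 genes, chosen by name: Tfrc, Steap3, Slc11a2 and Slc25a37 for uptake, Fth1 and Ncoa4 for storage and release, and Slc48a1, Hmox1, Slc11a1 and Slc40a1 for recycling and export. All 10 were measured among the 23337 genes of the EKLF-null comparison, the 35498 genes of the EKLF/GFP comparison and the 54227 genes of a single-cell library. The study asked how EKLF (Klf1), an erythroid transcription factor, acts in F4/80+ fetal liver macrophages, the cells at the centre of erythroblastic islands. All cells came from livers of E13.5 embryos labelled C57BL/6, sorted for the macrophage antigen F4/80. The first RNA-Seq set held 3 libraries of wild-type (EKLF+/+) and 3 of EKLF-/- (null) F4/80+ cells. The study's resource list gives the null line on a 129S4/SvJae background, so a part of genetic background in the difference was not tested. The second set held 3 EKLF/GFP+ and 3 EKLF/GFP- libraries from wild-type animals with the pEKLF-GFP transgene, in which a stretch of the EKLF promoter drives GFP. GFP thus reports the activity of that promoter, not the EKLF protein. EKLF/GFP- cells were extracted with Trizol, but EKLF/GFP+ cells with an Agilent Absolutely RNA Nanoprep kit, so extraction and group cannot be told apart in that comparison. The study also gives a lower RNA integrity for the EKLF/GFP+ RNA than for the null set, and its part was not tested. The single-cell library was made from 1 wild-type sample with Chromium V3 reagents, from F4/80+ cells of littermate embryos that the study selected with magnetic beads. The selection was done with an Icam4/αv inhibitor peptide, meant to part macrophages from erythroid cells. By the study's own flow cytometry not all of the selected cells were F4/80+. The study calls its replicates biological, but neither it nor the labels say whether each library came from separate animals or pools, so p-values measure the spread between these libraries.

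A developing erythroblast takes up transferrin-bound iron through the transferrin receptor (Tfrc). In the endosome Steap3 reduces the iron, Slc11a2 (DMT1) carries it to the cytosol, and Slc25a37 (mitoferrin) passes it into mitochondria for heme synthesis. A macrophage that has engulfed a red cell or an expelled nucleus moves heme out of the phagolysosome with Slc48a1 (HRG1), opens the heme ring with heme oxygenase (Hmox1), takes iron out of the phagosome with Slc11a1 (NRAMP1), and returns iron to the plasma through ferroportin (Slc40a1), the iron exporter of vertebrate cells. Both kinds of cell store iron in ferritin, whose heavy chain is Fth1, and release it by autophagy of ferritin through the receptor Ncoa4. Iron regulatory proteins bind RNA stem-loops called iron-responsive elements: in the 5′ UTR they hold back translation, and in the 3′ UTR of Tfrc they protect the mRNA from decay.

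The stem-loops are shown because they join the import, storage and export arms. Transcripts of GENCODE M21 (GRCm38) were searched on the transcribed strand for a bulged C, then an arm of 5 bases of any kind (N), then the loop CAGTGN, then an opposite arm that pairs with the first at all 5 positions (G with T allowed). Of 55341 genes, 448 held such a stem-loop (0.81%), as did 3 of the 10 iron genes. An element with another loop, or with a mismatch or extra bulge in these arms, would be missed. The iron genes without a match, Slc11a2 among them, are therefore not shown to lack an iron-responsive element. The letters are given 5′ to 3′ on the gene's strand, 27 bases each, with the loop in capitals. The 4 of Tfrc lie in its 3′ UTR on the plus strand, at chr16:32631220-32631246, chr16:32631599-32631625, chr16:32631664-32631690 and chr16:32631711-32631737. Those of Fth1 (chr19:9982733-9982759, plus strand) and Slc40a1 (chr1:45925466-45925492, minus strand) lie in the 5′ UTR.
Tfrc stem-loop 1: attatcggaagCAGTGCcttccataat
Tfrc stem-loop 2: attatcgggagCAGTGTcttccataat
Tfrc stem-loop 3: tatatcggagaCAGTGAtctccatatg
Tfrc stem-loop 4: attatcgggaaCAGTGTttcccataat
Fth1: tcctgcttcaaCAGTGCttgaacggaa
Slc40a1: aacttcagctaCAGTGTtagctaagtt

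A match is a description of letters and not a measured binding site. Transcripts holding a stem-loop were assigned 19.9 to 23.1% of the Tfrc TPM of the 6 EKLF/GFP libraries, 23.4 to 30.2% of the Fth1 TPM and 16.4 to 27.6% of the Slc40a1 TPM. These are not shares of reads, since short models gain TPM from few reads. In EKLF/GFP+ replicate 1 Slc40a1-207 (263 bases, no stem-loop) had 54.3% of TPM from 116 reads, and Slc40a1-201 (stem-loop) 19.6% from 2851. Fth1-206 (333 bases, no stem-loop) had 67.2% from 5161 reads, and Fth1-201 (stem-loop) 27.4% from 16062. Tfrc-202 (1860 bases, no stem-loop) had 51.2% from 17409 reads, and Tfrc-201 (stem-loops) 21.7% from 21243.

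The null libraries held 10695514 to 15362161 counts on genes and the EKLF/GFP libraries 22723197 to 28736342. Klf1 was checked first: its counts were 3922, 4573 and 4529 in EKLF+/+ and 845, 840 and 741 in EKLF-/- libraries, and 962, 1299 and 675 in EKLF/GFP- against 2773, 2176 and 2194 in EKLF/GFP+ libraries, as the labels say. Markers of red cells were abundant beside those of macrophages. Adgre1, which encodes F4/80, was measured at 26.8 to 40.3 CPM (counts scaled to library size, adjusted for composition) in the null set, where markers of red cells summed to 12910 to 17180 CPM in EKLF+/+ and 3446 to 4909 CPM in EKLF-/- libraries. Of 8 tested red cell markers 5 fell and 0 rose: Hbb-bs, Slc4a1, Epb42, Alas2 and Hemgn, while Rhag overlapped between the groups. The 12 macrophage markers summed to 313.8 to 375 CPM against 314.2 to 486.6 CPM, with 3 (Mrc1, Timd4, Cd5l) lower and 0 higher. In bulk libraries such as these, fewer cells of a type and less RNA per cell cannot be told apart.

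In EKLF-/- cells 3 of the 4 uptake genes fell, by the widest margin Slc25a37 and Tfrc, while Fth1 was the only gene of the 10 to rise and none of the 4 recycling and export genes passed the test. In edgeR's quasi-likelihood fit (p-values adjusted by Benjamini-Hochberg), 1 of the 10 genes rose in EKLF-/- cells and 3 fell. Over all 12753 genes tested, 9.72% were higher, 10.6% were lower and 20.3% differed in either direction. With 1 library left out that last share ran from 7.32% (without EKLF+/+ replicate 1) to 28.7% (without EKLF-/- replicate 1), and it was 7.92 to 8.19% without EKLF+/+ replicate 2, EKLF+/+ replicate 3 or EKLF-/- replicate 3. The median log2 fold change was -0.12 for the 10 genes and 0.02 over all genes. The levels of the 10 genes in every bulk library are drawn in the plot of CPM by library.

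**Figure D1:**
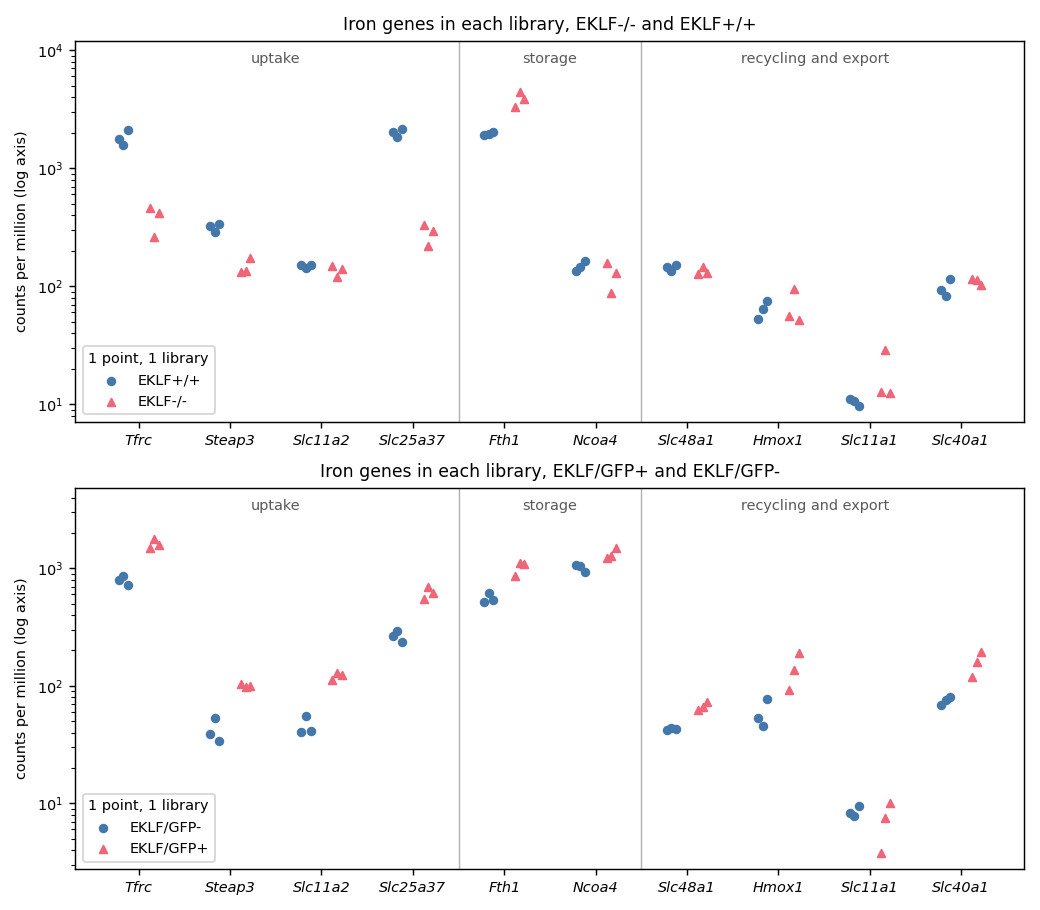
Level of each iron gene (CPM, log axis) in each of the 12 bulk libraries, 1 point a library, with the genes ordered by role; the null set and the EKLF/GFP set came from different pipelines and are to be compared only within a set. Tfrc and Slc25a37 sit at 1583 to 2155 CPM in EKLF+/+ libraries and at 219 to 464 CPM in EKLF-/- libraries, whereas Slc40a1 spans 82.5 to 115.6 CPM over both genotypes.

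Tfrc, the transferrin receptor, stood at 1762, 1583 and 2104 CPM in the EKLF+/+ libraries and at 464, 260 and 415 CPM in the EKLF-/- libraries. The groups did not overlap, and the highest null library was far below the lowest wild-type library. Tfrc fell by 2.26 ± 0.22 (SE) on the log2 scale, or 4.78-fold (n = 3 and 3, edgeR adjusted p = 0.000421). Slc25a37, the mitochondrial iron importer, was at 2036, 1825 and 2155 CPM against 328, 219 and 293 CPM. It showed the largest fall of the 10 genes, by 2.84 ± 0.17 on the log2 scale or 7.16-fold (edgeR adjusted p = 2.58e-05), again with no overlap. Steap3, the endosomal ferrireductase, was at 322, 290 and 340 CPM against 131, 135 and 172 CPM. Its fall was smaller, 1.12 ± 0.14 on the log2 scale (edgeR adjusted p = 0.00128), and the groups were apart.

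Slc11a2, which carries the same iron across the endosomal membrane, did not go with the other uptake genes. Its levels were 151, 144 and 152 CPM in EKLF+/+ and 147, 119 and 139 CPM in EKLF-/- libraries, and the groups overlapped (log2 fold change -0.14 ± 0.11, edgeR adjusted p = 0.362). The uptake genes together summed to 3843 to 4750 CPM in wild-type and 733.7 to 1070 CPM in null libraries. This sum moved with the red cell markers given above, whose part in it was not tested. Among those markers the log2 fold changes ran from -5.28 for Hbb-bs, a beta-globin, to -0.09 for Rhag, a red cell membrane protein, and Tfrc and Slc25a37 lay within that range.

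Ferritin moved the other way. Fth1, the ferritin heavy chain, was at 1899, 1965 and 2017 CPM in EKLF+/+ and at 3278, 4428 and 3847 CPM in EKLF-/- libraries. Every null library was above every wild-type library, and the rise was 0.97 ± 0.14 on the log2 scale or 1.96-fold (edgeR adjusted p = 0.00278). Fth1 has processed pseudogenes of near-identical sequence, so reads may have been split or lost in counting and its level is uncertain. Ncoa4, the ferritin autophagy receptor, was at 134, 145 and 163 CPM against 159, 87.2 and 128.5 CPM, with overlapping groups (log2 fold change -0.24 ± 0.20, edgeR adjusted p = 0.394). Markers of granulocyte-monocyte progenitors also rose, 4 of 5, from sums of 3596 to 4938 CPM to 5231 to 10700 CPM, as did 3 of 7 neutrophil markers (1 fell, with sums of 1597 to 2519 CPM against 2739 to 4957 CPM), 1 of 6 monocyte markers (470.6 to 577 CPM against 608.3 to 1040 CPM) and 2 of 5 mast cell or basophil markers. Lower were 4 of 5 mesenchymal, 3 of 6 endothelial and 3 of 6 progenitor markers. The part of these cells in the ferritin rise and the uptake fall was not tested.

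The recycling genes gave smaller differences. Slc48a1, the heme transporter, was at 144, 136 and 151 CPM in EKLF+/+ and 127, 144 and 129 CPM in EKLF-/- libraries. Hmox1, heme oxygenase, was at 52.8, 64.0 and 74.5 CPM against 55.9, 95.7 and 52.3 CPM. Slc40a1, ferroportin, was at 93.1, 82.5 and 114.8 CPM against 115.6, 112.1 and 103.3 CPM. In each of these 3 genes the groups overlapped, whereas 46.3% of all genes had groups apart, and the log2 fold changes were -0.11 ± 0.10, 0.09 ± 0.23 and 0.19 ± 0.13 with edgeR adjusted p-values of 0.45, 0.792 and 0.315.

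Slc11a1, the phagosomal metal transporter, had the fewest reads of the 10 genes, at 11.2, 10.7 and 9.71 CPM in EKLF+/+ and 12.6, 28.9 and 12.6 CPM in EKLF-/- libraries. The groups were apart, but EKLF-/- replicate 2 stood well above the other null libraries and the difference did not pass the test (log2 fold change 0.77 ± 0.32, edgeR adjusted p = 0.111). Without that library the log2 fold change was 0.24 (edgeR adjusted p = 0.273), and without EKLF-/- replicate 1 it was 0.98 and passed (edgeR adjusted p = 0.0435). EKLF-/- replicate 2 also had the highest Hmox1, the highest Fth1 and the lowest Tfrc of the null libraries, and the highest C1qb, a macrophage complement gene, at 49.7 CPM against 16.0 and 17.9 CPM in the other two.

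Set against each other within a library, uptake and export parted by genotype. The ratio of Tfrc to Slc40a1 counts was 18.3 to 19.2 in the EKLF+/+ libraries and 2.32 to 4.02 in the EKLF-/- libraries. The ratio of Slc25a37 to Slc40a1 counts was 18.8 to 22.1 against 1.96 to 2.84. These ratios rest on the same values as the tests above and add no test of their own.

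EKLF/GFP+ cells had more mRNA of uptake, storage and recycling genes alike than EKLF/GFP- cells. By edgeR's quasi-likelihood test 9 of the 10 genes passed as higher in EKLF/GFP+ cells and 0 as lower. This stands beside a wide difference between these sorted populations: over 14259 genes tested, 18.9% were higher, 25.8% were lower and 44.7% differed in either direction. The median log2 fold change was 1.04 for the 10 genes and -0.01 over all genes. All 11 tested red cell markers were also higher in EKLF/GFP+ cells (median log2 fold change 1.29, sums of 7101 to 9618 CPM against 13440 to 17130 CPM). Their part in the iron genes' difference was not tested. Of 12 macrophage markers 0 were higher and 2 (Csf1r, Cd68) were lower, with sums of 357 to 528.8 CPM against 203.6 to 562.8 CPM. The monocyte, neutrophil and granulocyte-monocyte progenitor markers were lower, 6 of 6, 7 of 7 and 5 of 5, as were 6 of 6 progenitor markers (sums of 436.5 to 536.6 CPM against 149 to 181.1 CPM), all 4 tested lymphoid markers and 4 of 6 endothelial markers. Megakaryocyte markers went with the red cell markers, 6 of 7 higher and 1 lower (median log2 fold change 1.18, sums of 93.6 to 111.5 CPM against 137.6 to 213.6 CPM), and their part was not tested either.

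Among the uptake genes, Tfrc stood at 804, 857 and 724 CPM in EKLF/GFP- and at 1489, 1779 and 1578 CPM in EKLF/GFP+ libraries. It was 2.03-fold higher (log2 fold change 1.02 ± 0.10, edgeR adjusted p = 0.000133). The groups of each of the 4 uptake genes were apart, as were those of 55.7% of all genes in this comparison. Slc11a2 was at 40.6, 55.4 and 41.0 CPM against 111, 129 and 124 CPM, a log2 fold change of 1.41 ± 0.13 (edgeR adjusted p = 1e-04). Steap3 was at 38.7, 52.9 and 34.1 CPM against 104.5, 97.7 and 98.8 CPM (1.26 ± 0.15, edgeR adjusted p = 0.000337). Slc25a37 was at 266, 292.5 and 235.5 CPM against 554, 693 and 621 CPM (1.23 ± 0.12, edgeR adjusted p = 9.36e-05). Slc11a2 thus rose in EKLF/GFP+ cells while its null and wild-type levels overlapped, but the contrasts come from different pipelines and their difference was not tested.

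The storage genes rose less. Fth1 was at 520, 614 and 535 CPM in EKLF/GFP- and 856, 1107 and 1082 CPM in EKLF/GFP+ libraries, 1.82-fold higher (log2 fold change 0.87 ± 0.12, edgeR adjusted p = 0.000682). Fth1 was therefore higher in EKLF/GFP+ cells and higher in EKLF-/- cells. In this table its named pseudogenes carried few reads, 2 to 14 counts for Fth-ps2 and 0 for Fth-ps3. Ncoa4 was at 1072, 1051 and 938 CPM against 1228, 1266 and 1482 CPM, the smallest difference that passed (0.38 ± 0.10, edgeR adjusted p = 0.0173). It missed the threshold without EKLF/GFP+ replicate 3 (0.30, edgeR adjusted p = 0.0597) and without EKLF/GFP- replicate 3 (0.31, edgeR adjusted p = 0.0572).

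Of the recycling and export genes, 3 of 4 rose in EKLF/GFP+ cells. Slc40a1 was at 68.9, 76.4 and 79.8 CPM in EKLF/GFP- and 119, 158.5 and 194 CPM in EKLF/GFP+ libraries, 2.09-fold higher (log2 fold change 1.06 ± 0.16, edgeR adjusted p = 0.00116). Hmox1 was at 53.5, 45.9 and 77.0 CPM against 91.4, 137 and 190 CPM (1.25 ± 0.28, edgeR adjusted p = 0.00749). Slc48a1 was at 42.3, 44.0 and 43.0 CPM against 62.6, 65.6 and 72.5 CPM (0.63 ± 0.08, edgeR adjusted p = 0.000456). The groups of these 3 genes did not overlap, as for that 55.7% of all genes. Slc11a1 was at 8.30, 7.74 and 9.41 CPM against 3.77, 7.50 and 10.1 CPM, overlapping widely (-0.25 ± 0.31, edgeR adjusted p = 0.552).

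The EKLF/GFP+ libraries were uneven in these same genes. Replicate 1 was the lowest of the 3 and replicate 3 the highest for Slc40a1, Hmox1, Slc48a1 and Slc11a1, and also for the macrophage markers Adgre1 (36.6, 82.5 and 104 CPM), Marco (22.6, 66.0 and 79.3 CPM) and Csf1r (25.4, 45.3 and 64.5 CPM). The uptake genes did not follow that order, since Tfrc, Slc11a2 and Slc25a37 were highest in replicate 2 and Steap3 in replicate 1. The ratio of Tfrc to Slc40a1 counts was 9.08 to 11.7 in EKLF/GFP- and 8.15 to 12.5 in EKLF/GFP+ libraries, and the groups overlapped.

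**Figure D2:**
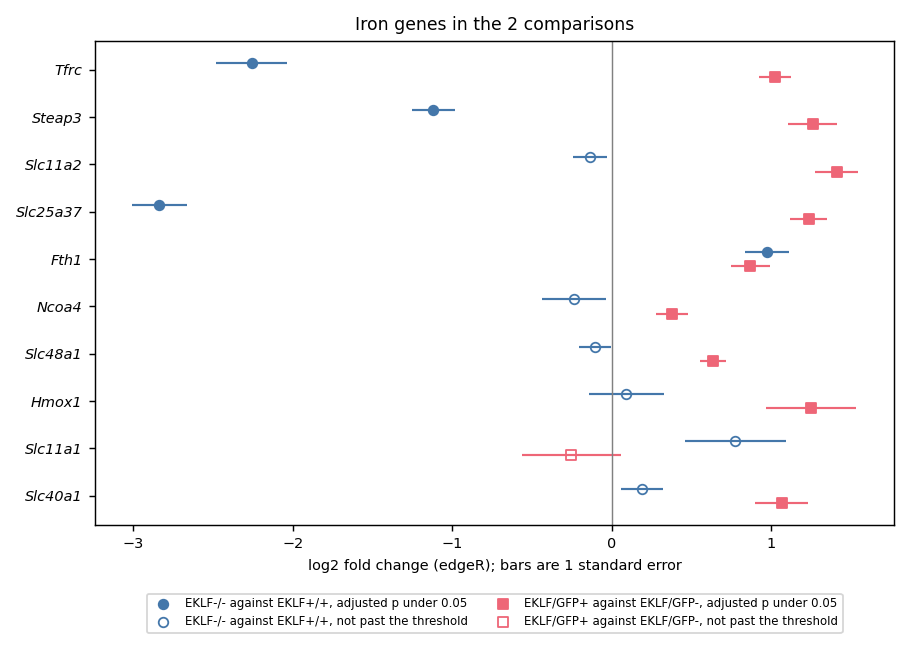
Log2 fold change of each iron gene (points, with a bar of 1 standard error) in EKLF-/- against EKLF+/+ cells (circles) and in EKLF/GFP+ against EKLF/GFP- cells (squares), filled where the edgeR adjusted p was under 0.05. Tfrc (-2.26), Slc25a37 (-2.84) and Steap3 (-1.12) lie left of 0 for the null and right of 0 for EKLF/GFP+ cells, while Fth1 lies to the right in both (0.97 and 0.87).

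Between genes, levels can be compared per transcript length only for the EKLF/GFP libraries, as TPM, which scales reads by transcript length. In EKLF/GFP- cells the mean TPM was 1138 ± 114 (SD, n = 3) for Fth1, 517 ± 11.3 for Ncoa4, 250 ± 8.87 for Tfrc, 76.2 ± 5.37 for Slc25a37 and 58.1 ± 10.7 for Slc40a1. In EKLF/GFP+ cells the order of these genes was the same, with 2005 ± 214 TPM for Fth1, 712 ± 76.9 for Ncoa4, 505 ± 40.5 for Tfrc, 169.5 ± 12.4 for Slc25a37 and 146 ± 44.6 for Slc40a1. In EKLF/GFP+ cells Slc40a1 (101.6 to 191 TPM) overlapped both Slc25a37 (155 to 178 TPM) and Slc11a2 (123 to 132 TPM), so its place beside them is not set beyond the spread. Hmox1, Slc48a1, Steap3 and Slc11a1 followed at means of 7.95 to 60.7 TPM. Partial or non-productive transcript models carried much of the TPM of several genes, such as 59.5 to 67.2% for a 333-base model of Fth1, 39.4 to 54.3% for a 263-base model of Slc40a1 and 78.7 to 90.3% for a model of Slc25a37 annotated as subject to nonsense-mediated decay, and these levels depend on them.

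Single cells gave each gene's level by cell class. The library held 3096 barcodes, all distinct, of which 3093 had at least 200 genes, with a median of 18610 molecules. Clustering without the iron genes gave 14 clusters, and marker genes named 12 of them. Macrophage-like cells made up 46.6% (1441 cells, median 14480 molecules) and erythroid-like cells 19.9% (617 cells, median 27670 molecules). The others were monocyte-like (283 cells), neutrophil-like (231), mast cell- or basophil-like (104), megakaryocyte-like (86), endothelial-like (83) and hepatoblast-like (69). A pair of clusters (179 cells, median 7486 molecules) stayed unnamed, the larger one since it carried all 12 macrophage markers and 3 red cell markers, the smaller one for its low depth. The smaller one also carried all 12 macrophage markers, and 1 red cell marker. There is 1 library, so no test was possible, and intervals cover counting error only.

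Of the 10 genes, 4 were at least 2-fold higher per molecule in macrophage-like than in erythroid-like cells, 2 were at least 2-fold higher in erythroid-like cells and 4 lay within 2-fold. Over the 8300 genes with at least 0.1 molecules per 10000 in either class, 37.7% were at least 2-fold higher in macrophage-like and 7.73% in erythroid-like cells. The 4 macrophage genes were the recycling and export genes. Slc40a1 was at 14.3 molecules per 10000 in macrophage-like and 1.01 in erythroid-like cells, 14.1-fold higher (the inverse ratio was 0.0708, with a 95% interval of 0.0676 to 0.0741). Hmox1 was at 24.8 against 1.74 (14.3-fold, 13.8 to 14.8), Slc11a1 at 1.07 against 0.0389 (27.5-fold, 22.0 to 34.9) and Slc48a1 at 2.19 against 0.498 (4.39-fold, 4.1 to 4.7).

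The erythroid-like cells carried Slc25a37 at 5.16 against 0.307 molecules per 10000 in macrophage-like cells, 16.8-fold higher (15.6 to 18.1). Steap3 was at 0.437 against 0.0946 (4.62-fold, 4.0 to 5.35), and Slc11a2 at 0.389 against 0.195, at the edge of the 2-fold limit (1.78 to 2.24). Tfrc was less divided between the classes, at 3.52 in erythroid-like and 1.95 in macrophage-like cells (1.80-fold, 1.74 to 1.87). Fth1 was the most abundant of the 10 in both classes, at 60.5 and 107 (1.77-fold higher in macrophage-like cells, 1.76 to 1.78), and Ncoa4 was at 0.89 and 1.07.

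**Figure D3:**
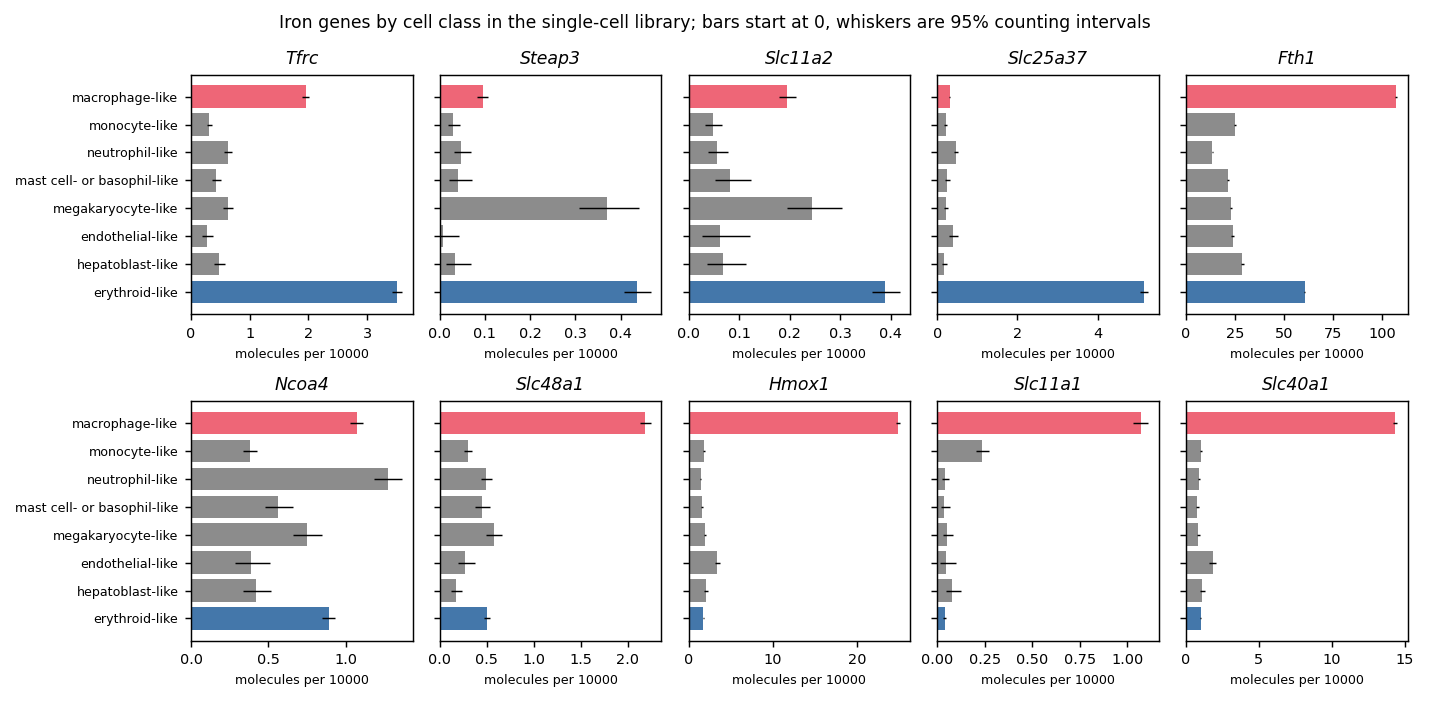
Molecules per 10000 of each iron gene (bars from 0, each panel with its own linear axis, whiskers are 95% exact Poisson intervals on the counts) in the 8 named cell classes of the single-cell library. Slc40a1, Hmox1, Slc48a1 and Slc11a1 are highest in macrophage-like cells, and Slc25a37 is highest in erythroid-like cells at 5.16.

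Free RNA can give every droplet a few molecules of abundant genes, but its level was not measured here. Hbb-bs, which macrophages do not make, was found at 26.8 molecules per 10000 in macrophage-like cells and 9.71 to 16.5 in the other named classes, against 795 in erythroid-like cells. The part of free RNA, doublets or engulfed cells in the macrophage-like level was not tested. Slc40a1 in erythroid-like cells (1.01) fell within the 0.786 to 1.84 of the remaining named classes, and was not set apart from them. The erythroid-like levels of Hmox1, Slc11a1 and Slc48a1 likewise lay within the ranges of those classes (1.43 to 3.43, 0.036 to 0.236 and 0.169 to 0.571), as did the macrophage-like level of Slc25a37 (0.169 to 0.468). For Steap3 (0.0946) and Slc11a2 (0.195) the macrophage-like levels were below only the megakaryocyte-like ones among those classes (0.369 and 0.244). The rest of those classes reached at most 0.0477 for Steap3 and 0.0829 for Slc11a2. The folds of Slc40a1, Hmox1, Slc11a1, Slc48a1 and Slc25a37 therefore have a denominator within the range of classes outside the comparison. Within the erythroid-like class, Slc48a1 in cluster 7 was above that range, at 0.74. The intervals of all 7 folds cover counting only. Thinned to 5000 molecules a cell, 97.3% of macrophage-like and 34.0% of erythroid-like cells held a Slc40a1 molecule, against 32.2 to 48.8% in the remaining named classes (unthinned, 99.7% and 80.9%). The thinning left out 56 cells, 6 of them macrophage-like and 2 erythroid-like.

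Tfrc in macrophage-like cells was above the level of those classes: 1.95 molecules per 10000, against 0.271 to 0.623 in the 6 named classes that are neither macrophage- nor erythroid-like. After thinning, 53.6% of macrophage-like, 70.4% of erythroid-like and 13.4 to 28.1% of the cells of those 6 classes held a Tfrc molecule (unthinned, 79.9%, 89.5% and 32.5 to 77.9%). The excess held in each of the 3 macrophage-like clusters, at 1.84, 1.82 and 2.16 molecules per 10000. The same clusters had Hbb-bs at 42.7, 17.6 and 23.3 molecules per 10000. Scrublet called no doublet in this library, and the part of doublets in these molecules was not tested.

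Within the erythroid-like class the uptake genes parted by cluster. Cluster 6, with all 11 detected red cell markers raised, had the most Tfrc (5.75 molecules per 10000) and the most Slc25a37 (10.6). Cluster 7, led by globin genes, kept Slc25a37 at 9.99 but had Tfrc at 1.25, Steap3 at 0.0191 and Slc11a2 at 0.0667. Cluster 4, the deepest at a median of 47000 molecules, had Tfrc at 3.11, the most Steap3 (0.587) and Slc25a37 at only 1.37. Ncoa4 was lowest in cluster 4 and highest in cluster 7, at 0.375 in cluster 4, 1.23 in cluster 6 and 2.21 in cluster 7. Cluster 4 carried only 4 of the 11 red cell markers above the other cells and was led by Mns1, Tmem56 and Cited4, but it held Klf1 at 1.43 molecules per 10000, against 1.64 in cluster 6 and 0.0216 in macrophage-like cells. Klf1 was at 0.362 in cluster 7, below the 0.414 of the megakaryocyte-like cluster.

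Ferroportin split the macrophage-like clusters instead. Slc40a1 was at 18.7 molecules per 10000 in cluster 2, 14.1 in cluster 0 and 9.88 in cluster 1, and Hmox1 at 32.8, 28.4 and 13.4. Cluster 2 was led by Cd5l, Marco and Vcam1, and cluster 1 by Fcrls, Cx3cr1 and Dab2. The unnamed clusters 8 and 13 were high in both, with Tfrc at 4.21 and 4.68, Slc40a1 at 13.8 and 18.1 and Slc25a37 at 2.86 and 1.61 molecules per 10000. Their median depths were 8358 and 5278 molecules, low for this library.

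**Figure D4:**
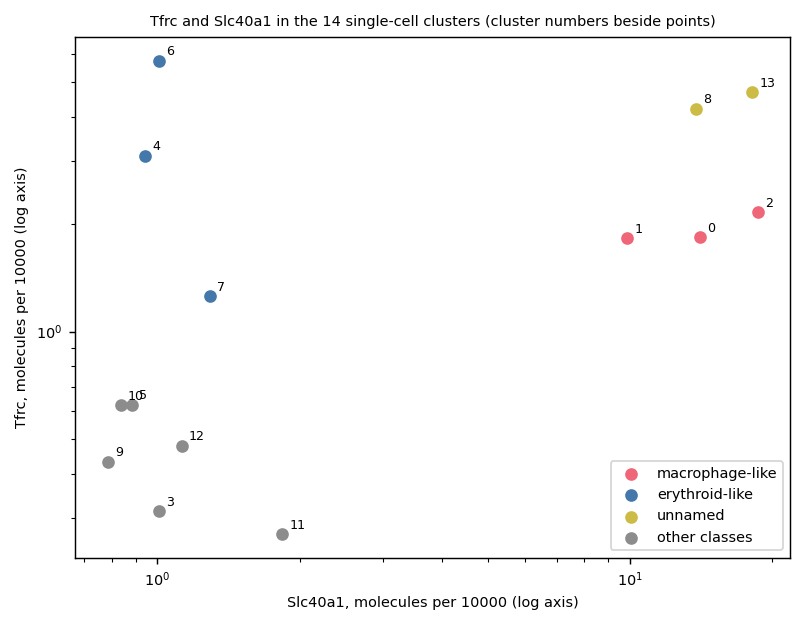
Tfrc against Slc40a1, both as molecules per 10000 on log axes, for the 14 single-cell clusters, coloured by class. Macrophage-like clusters lie at 9.88 to 18.7 for Slc40a1 and 1.82 to 2.16 for Tfrc, erythroid-like clusters at 0.941 to 1.29 for Slc40a1 and 1.25 to 5.75 for Tfrc, and the unnamed clusters 8 and 13 are high on both axes.

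Summed over the library, macrophage-like cells held 84.5% of the Slc40a1, 84.7% of the Hmox1, 84.9% of the Slc11a1 and 71.8% of the Slc48a1 molecules, with 36.9% of all molecules. Erythroid-like cells, with 28.6% of all molecules, held 84.4% of the Slc25a37, 65.6% of the Steap3, 50.7% of the Slc11a2 and 50.7% of the Tfrc molecules. Cluster 4, named on few markers, held 682 of the 877 Steap3, 522 of the 781 Slc11a2 and 3607 of the 7054 Tfrc molecules of that class, so these 3 shares rest on its naming. Macrophage-like cells held another 36.3% of the Tfrc. The erythroid share of Tfrc was 35.4 to 35.8% at resolution 0.4 or 1.2 or with a stricter cell filter, where fewer cells were named erythroid-like (411 to 479).

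Across the 14 clusters, the genes most like Slc40a1 in their log2 level, of 2741 considered, were Timd4 (Pearson r = 0.995), C1qa (0.994) and Spic (0.992), which encode a phosphatidylserine receptor, a complement chain and a transcription factor of red pulp macrophages. Those most like Tfrc were Psme4 (0.91), Acp5 (0.892) and Grina (0.883). Hmox1 and Slc40a1 had r = 0.988, Tfrc and Slc40a1 r = 0.546, and Slc25a37 and Slc40a1 r = -0.01. All points share 1 library and differ in depth, and the correlations are descriptions.

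A list of 51 further iron genes was measured in the same way. In EKLF-/- cells 5 of 42 tested genes rose and 5 fell (median log2 fold change 0.14, against 0.02 over all genes), near the 9.72% higher and 10.6% lower over all genes. These calls were not stable: leaving out EKLF+/+ replicate 1, EKLF+/+ replicate 2 or EKLF-/- replicate 3 left 1 gene higher and 3 lower. Leaving out EKLF+/+ replicate 3 left 2 higher and 3 lower, and leaving out EKLF-/- replicate 1 gave 9 higher and 5 lower. In the storage and iron chaperone group 2 of 3 tested genes rose. Ftl1, the ferritin light chain, went from 1745, 1804 and 1939 CPM to 4080, 6410 and 5200 CPM with no overlap (log2 fold change 1.52, edgeR adjusted p = 0.000944). The largest fall was in Erfe, the erythroblast hormone that lowers hepcidin, from 29.9, 34.1 and 27.4 CPM to 1.88, 2.45 and 2.08 CPM (-3.83, edgeR adjusted p = 5.38e-06). The lower genes also held Blvrb, a biliverdin reductase (-1.09), Isca1 of iron-sulfur assembly (-0.71) and the mitochondrial transporter Abcb10 (-0.69). The higher ones held Hp, the hemoglobin scavenger haptoglobin (0.87), Slc39a8, a metal importer (0.74), and Snx3, which recycles the transferrin receptor (0.47). The edgeR adjusted p-values of these 6 were 0.0026 to 0.0329.

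In EKLF/GFP+ cells 16 of 42 tested genes of the list were higher and 7 lower (median 0.12, against -0.01 over all genes), where 18.9% of all genes were higher and 25.8% lower. The lower calls were not stable: with any 1 library left out 3 to 5 were called (3 without EKLF/GFP- replicate 2, 4 without EKLF/GFP- replicate 1, EKLF/GFP- replicate 3 or EKLF/GFP+ replicate 1), and DESeq2 made 4. The mitochondrial import and iron-sulfur assembly group had 5 of 10 higher and 0 lower, among them Abcb10 at 78.9, 92.0 and 62.4 CPM in EKLF/GFP- and 203, 212 and 227 CPM in EKLF/GFP+ libraries (log2 fold change 1.46, edgeR adjusted p = 9.24e-05). Tfr2, a second transferrin receptor, went from 22.4, 24.2 and 21.4 CPM to 59.6, 66.3 and 61.6 CPM (1.46, edgeR adjusted p = 1.47e-05). Erfe (1.53) and Slc39a8 (1.40) were also higher. The largest falls were in Lcn2, a siderophore-binding protein of neutrophil granules (-4.07), and Hp (-3.78), beside Lrp1, the hemopexin receptor (-0.998), and Cp, ceruloplasmin (-0.96, at 9 to 25 counts a library). The edgeR adjusted p-values of these 6 were 5.93e-06 to 0.0457. Slc39a8 and Ftl1 passed as higher in both contrasts, with the null calls subject to the changes given above.

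In the single-cell library, of the 51 listed genes 31 reached 0.1 molecules per 10000 in either class, and 11 of them were at least 2-fold higher in macrophage-like cells, 8 in erythroid-like cells and 12 within 2-fold, where the shares over all 8300 genes were 37.7% and 7.73%. Ftl1 was at 151 molecules per 10000 in macrophage-like and 36.3 in erythroid-like cells (4.15-fold), the transferrin gene Trf at 2.17 and 0.191, Hfe at 1.07 and 0.0732 and Lrp1 at 2.55 and 0.112. The erythroid side held Tfr2 (at 0.268, against 0.00579 in macrophage-like cells, which is below the 0.00702 to 0.353 of the remaining named classes), Abcb10 (12.6-fold) and Glrx5 (5.91-fold, at 8.86). Of the 10 mitochondrial genes 4 were erythroid and 0 macrophage, and of 8 genes of heme handling that reached the level 5 were macrophage and 2 erythroid. None of the 8 genes of the export and hepcidin group reached 0.1 in either class.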

How the data were processed

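Raw counts per gene of the null set were deposited by the authors (STAR, mm10, htseq-count), and 5 columns of the EKLF+/+ replicate 1 file that repeat other libraries were not used. For the EKLF/GFP set the authors deposited Salmon estimated counts and TPM per transcript (GRCm38), which were summed per gene and rounded. The authors' deposited normalized counts, a signal scaled by tximport and DESeq2, served only an alternative. A deposited log2 table served only to check which column was EKLF+/+ replicate 1, and its columns of the authors' fold changes were not used. The single-cell file holds Alevin estimated molecule counts, deposited without a cell annotation. Each bulk set was fitted in edgeR 4.0.16 (quasi-likelihood, TMM, genes with 10 counts in at least 3 libraries, Benjamini-Hochberg threshold 0.05, two-sided). An exact permutation test of 3 against 3 cannot go below 0.1. Single cells were clustered in Seurat 5.3.0 (3972 variable genes without iron genes, 30 components, resolution 0.8). A cluster took the class with the highest mean fold among classes with at least 3 raised markers, a rule set after marker levels were seen. It stayed unnamed if at least 3 macrophage and 3 red cell markers were raised. The same held if another class had more markers among its 10 leading genes, or if it was shallow with no class marker among them. Scrublet called 0 doublets (0%), so no doublet was removed. Intervals on levels are exact Poisson and on shares Wilson, at 95%. The 10 genes and all lists were chosen with earlier results of these data known. Of the further iron genes, the 4 largest changes in each direction that passed the test with a mean of at least 10 counts are named in each bulk comparison, fewer where fewer are given, and single-cell examples were chosen after their values were seen. Likeness used log2(molecules per 10000 + 0.1). The scripts were tested on simulated data. Some genes of the lists are counted but not reported here by name.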

Additional observations from a re-analysis of the deposited data

How the results depend on the processing

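Over DESeq2, other filters and scalings, the replicate block and each replicate left out, 119 of 120 values of the 10 genes in the null comparison and 138 of 140 in the EKLF/GFP comparison kept their direction, where called, and their side of the threshold, and the exceptions (Slc11a1, Ncoa4) are given with their values above. With each replicate left out, the 10 genes gave 1 to 2 higher and 3 lower calls in EKLF-/- cells, and 8 to 9 higher and 0 lower in EKLF/GFP+ cells. The iron list was less stable: in EKLF-/- cells DESeq2 called 8 higher, and leave-one-out fits called 1 to 9 higher and 3 to 6 lower. In EKLF/GFP+ cells DESeq2, the replicate block and limma on the authors' normalized counts each called 4 lower, and leave-one-out fits called 15 to 16 higher and 3 to 5 lower. Same-numbered libraries did not deviate together (correlations 4e-04, -0.0094 and 0.0334 in the null set, 0.0234, -0.1325 and -0.0081 in the EKLF/GFP set), and a block by replicate number moved no call of the 10 genes. Differently numbered EKLF/GFP libraries gave correlations of -0.1579 to 0.2066. Such values cannot show whether libraries were paired in another order, and pairing is unknown. The macrophage-like share of Slc40a1 molecules, 84.5%, was 85.7% at resolution 0.4, 85.0% with 20 components, 85.9% with at least 1000 genes and at most 10% mitochondrial counts a cell, and 87.5% without the cells with the highest 5% of Scrublet scores, which was chosen after seeing the data. The erythroid-like share of Tfrc, 50.7%, was 35.8% at resolution 0.4, 35.4% at 1.2 and 35.7% with that cell filter, and 51.0% without the cells with the highest Scrublet scores. Leaving out called doublets was not run, since none was called. Listed iron genes with few reads, such as Hamp and Cd163, fell under the count filter and could not be tested at this depth.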
